A study of Mus musculus with 6 samples.

Results

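MAP kinases are signalling enzymes that are switched on by phosphorylation, and cells limit them with inhibitors that the pathway itself often induces. The genes described here encode such inhibitors: the dual-specificity phosphatases *Dusp1*, *Dusp4*, *Dusp5*, *Dusp6* and *Dusp10*, the Sprouty proteins *Spry1*, *Spry2* and *Spry4*, and the Spred proteins *Spred1* and *Spred2*. They were found by gene symbol, with every probe kept, on a mouse bead array that listed 31508 symbols. Of the 10 genes named, 9 were on the array under their own symbol, with 18 probes. The remaining gene, *Dusp5*, was listed as LOC240672, whose number is the RefSeq gene ID of *Dusp5*. Its 1 probe lies outside the symbol rule and is given separately.

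The RNA came from tubes of cortical bone cut from the tibia and femur of C57BL6 mice aged 3 months. The marrow had been flushed out and the surface cells digested with collagenase and trypsin, to leave the osteocytes, the cells embedded in bone matrix. After a night in medium with fetal calf serum, tubes for 3 arrays were treated for 24 h with 250 nM parathyroid hormone (PTH 1-34) and tubes for 3 control arrays were left untreated for the same time. Bones of several mice were pooled for each preparation, and all samples came from this strain. The question was how PTH changes gene expression in osteocytes within their matrix.

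In bone, PTH acts through a receptor coupled to cyclic AMP and protein kinase A, and this signal meets the ERK pathway that growth factors use. Dual-specificity phosphatases remove the activating phosphates from MAP kinases. DUSP6 acts in the cytoplasm on ERK, DUSP5 in the nucleus on ERK, DUSP1 and DUSP4 in the nucleus on several MAP kinases, and DUSP10 mainly on p38 and JNK. Sprouty and Spred proteins act further upstream, between growth factor receptors and the kinase RAF.

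The median signal of the arrays lay between 111 and 129, and 34.2% to 38.4% of the 45281 probes were above background, meaning a detection p below 0.05. PTH array 3 had the brightest upper range, with a 95th percentile signal of 1227 against 718 to 916 on the other arrays. Testing was limited to probes with such a detection p on 3 or more of the 6 arrays, and a gene was represented by its brightest probe. Normalized values are log2 intensities, and a change is the PTH mean minus the control mean on that scale. With limma, 207 of 11972 genes had a Benjamini-Hochberg adjusted p below 0.05, of which 82 were higher and 125 lower with PTH. The changes of all genes had a 5th percentile of -0.48, a median of 0.005 and a 95th percentile of 0.46.

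Of the 9 genes on the array by symbol, 6 were tested, and 0 of them passed the adjusted threshold, where 1.73% of all genes did. LOC240672 did not pass either. At an unadjusted p below 0.05 the count was 4 of 6 (*Dusp1*, *Dusp4*, *Dusp10* and *Spry4*), where 14.9% of all genes tested reached it. In all 6 the arrays of the groups did not overlap on the normalized scale. *Spry4* was above background on 3 control arrays and 1 PTH array. It met the filter through the group where it was higher, so its place in these counts is a description. For *Dusp1*, *Dusp4* and *Dusp6* all PTH arrays exceeded all controls, which 11.1% of all genes tested showed. For *Dusp10*, *Spry4* and *Spred1* all PTH arrays were under all controls, which 10.8% of all genes showed. The remaining genes, *Spry1*, *Spry2* and *Spred2*, were too dim to test. The 3 arrays against 3 could not give an exact permutation p below 0.1 for any single gene.

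**Figure D1:**
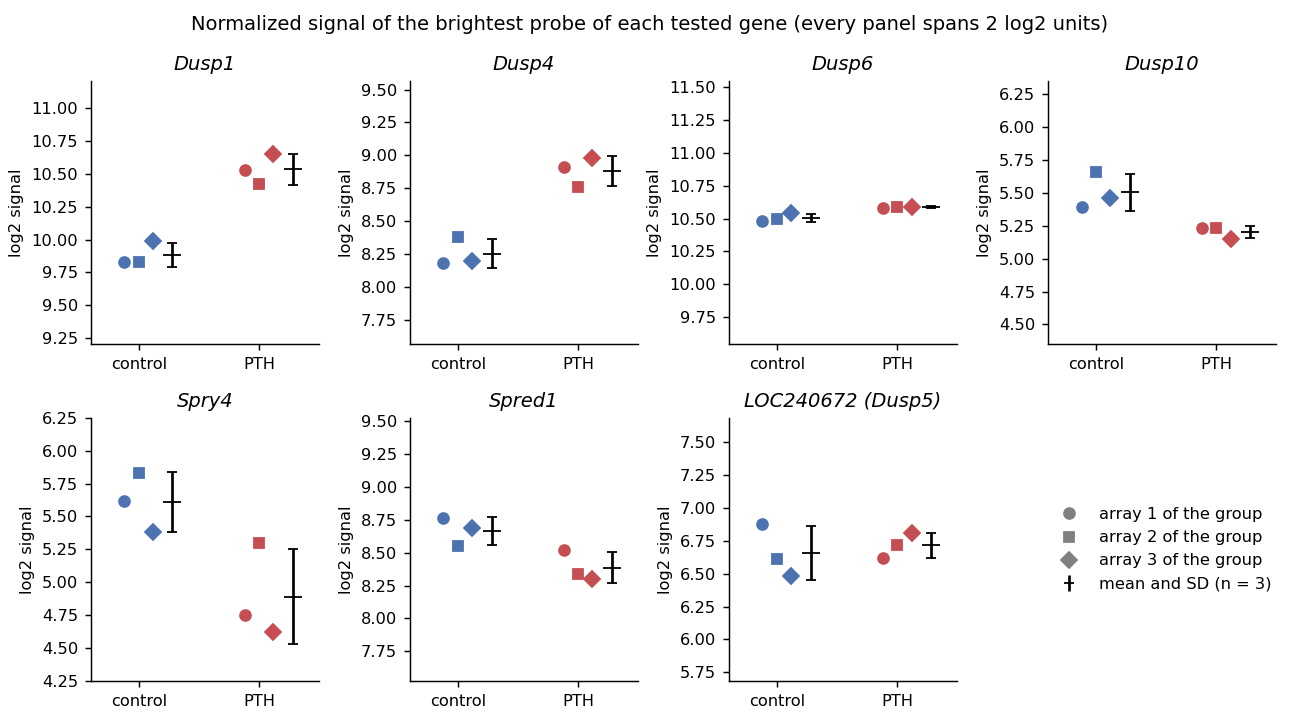
Normalized log2 signal of the brightest probe of the 6 tested genes and of LOC240672 (*Dusp5*) on each control (blue) and PTH (red) array, with the group mean and SD (n = 3). *Dusp1* and *Dusp4* sit apart by 0.65 and 0.63, *Dusp6* by 0.08, and the PTH arrays of *Spry4*, *Spred1* and *Dusp10* sit below the controls.

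*Dusp1*, the nuclear phosphatase that many stimuli induce as an early response, had the smallest p of the family. Its normalized values were 9.83, 9.83 and 9.99 in controls and 10.53, 10.42 and 10.65 with PTH. The deposited signals were 817, 990 and 1104 in controls and 1287, 1504 and 2345 with PTH. All 3 PTH arrays were higher than all 3 controls, on both scales. The mean went from 9.88 ± 0.10 to 10.53 ± 0.11 (SD, n = 3), a change of 0.65 (SE 0.13), or 1.57-fold with a 95% confidence interval of 1.28 to 1.92. The limma adjusted p was 0.0545, which narrowly missed the threshold. Under 9 other ways of processing the arrays the change was 0.60 to 0.80 and the adjusted p 0.000196 to 0.24, below the threshold in 5. When each array was left out in turn the change was 0.59 to 0.71, and the limma adjusted p of 0.103 to 0.193 passed in 0 of 6 fits.

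*Dusp4*, the closely related nuclear phosphatase, had 4 probes. The brightest gave 8.18, 8.38 and 8.20 in controls and 8.91, 8.76 and 8.98 with PTH. Its deposited signals were 325, 430 and 384 in controls and 479, 542 and 805 with PTH, again without overlap. The change was 0.63 (SE 0.13), or 1.55-fold with a 95% confidence interval of 1.26 to 1.91, and the limma adjusted p was 0.0624. The second probe differed by 0.52 with overlapping groups (limma adjusted p = 0.345). The third probe, close to background, differed by 0.54 without overlap on the normalized scale (limma adjusted p = 0.19). Its deposited signals of 128, 138 and 125 in controls overlapped with 129, 136 and 186 with PTH. It was above background on 2 control arrays and 3 PTH arrays. The fourth probe was above background on 0 arrays. The 3 probes that could be tested therefore had differences of like size and the same sign, although 0 of them passed the test. Under 8 other settings that used the brightest probe its adjusted p was below 0.05 in 4, with changes from 0.51 to 0.78. With all probes averaged the change was 0.56 (limma adjusted p = 0.0607).

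*Dusp6*, the cytoplasmic ERK phosphatase whose transcription commonly follows ERK activity, had values of 10.48, 10.50 and 10.54 in controls. With PTH they were 10.58, 10.59 and 10.59. The groups did not overlap on this scale, but the distance between them was small. The deposited signals, 1242, 1513 and 1564 in controls and 1340, 1673 and 2248 with PTH, overlapped. The change was 0.08, with a 95% confidence interval of -0.18 to 0.34 that leaves out a difference as large as that of *Dusp1* or *Dusp4* (limma adjusted p = 0.80). The other probes of *Dusp6* differed by -0.07 (limma adjusted p = 0.879) and -0.28 (limma adjusted p = 0.427), with overlapping groups. With all probes averaged the value for *Dusp6* was -0.09, so its sign depended on the probes used.

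*Dusp5*, the nuclear ERK phosphatase listed as LOC240672, had values of 6.88, 6.61 and 6.48 in controls and 6.62, 6.72 and 6.81 with PTH. The groups overlapped. The change was 0.06, with a 95% confidence interval of -0.28 to 0.40 (limma adjusted p = 0.891), and its sign turned to -0.03 without control array 3.

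*Dusp10*, the p38 and JNK phosphatase, was dim on every array. Its brighter probe was above background on all 6 arrays, with normalized values of 5.39, 5.66 and 5.46 in controls and 5.23, 5.23 and 5.15 with PTH. The PTH arrays were the lower ones, although on the deposited scale the signals of 133, 156 and 133 in controls overlapped with 124, 128 and 142 with PTH. The change of -0.30 had a limma adjusted p of 0.324, and it was -0.09 when the background was not corrected. The other probe differed by -0.20 with overlapping groups (limma adjusted p = 0.766).

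**Figure D2:**
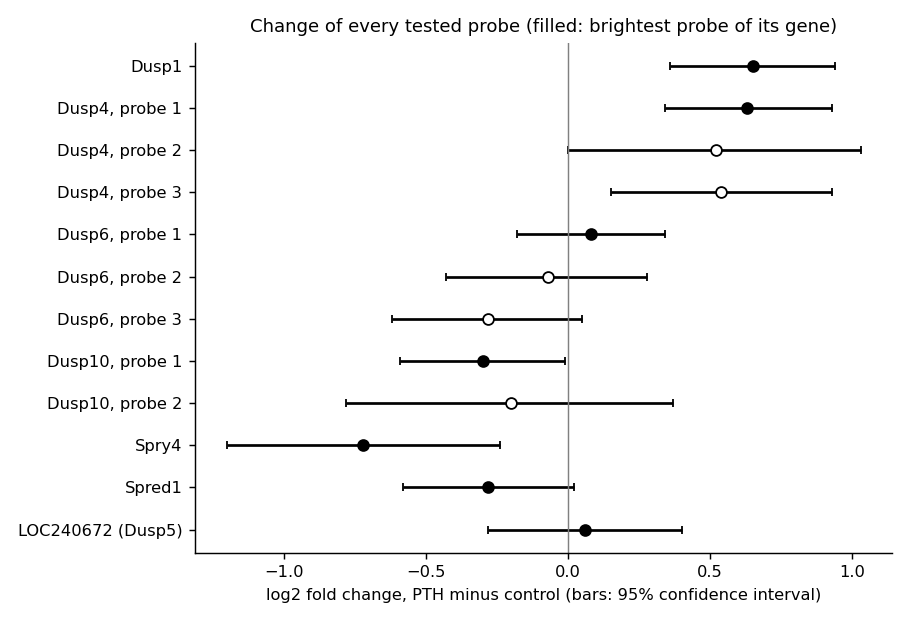
Change (PTH minus control, log2) with its 95% confidence interval for each of the 11 tested probes of the family and for LOC240672 (*Dusp5*), with the brightest probe of each gene filled. The 3 *Dusp4* probes lie between 0.52 and 0.63, while the 3 *Dusp6* probes lie between -0.28 and 0.08.

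The differences between phosphatases were also taken within each array, with each gene set relative to its own control mean. These pairs, 4 in all, were chosen after the values were seen. *Dusp1* minus *Dusp6* was -0.05 to 0.07 on the control arrays and 0.46 to 0.68 on the PTH arrays, a mean difference of 0.57. *Dusp4* minus *Dusp6* was -0.09 to 0.13 in controls and 0.43 to 0.64 with PTH, a mean difference of 0.55. Both pairs separated the groups fully and gave a two-sided exact permutation p of 0.1, the smallest the design allows. Because the pairs were picked on these same values, that p is a description only. *Dusp1* minus *Dusp4* overlapped, with -0.18 to 0.16 in controls and -0.02 to 0.04 with PTH (exact permutation p = 0.8). The fourth pair, *Dusp1* minus *Spry4*, is not given, because *Spry4* was above background on only 1 PTH array.

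A promoter sequence (250 bases before the start of the gene, RefSeq, build GRCm38.p6) was given for 8 of the 10 genes. None was given for *Dusp4* and *Spry4*, so *Dusp4*, with a change of 0.63 against 0.65 for *Dusp1*, could not be compared. The promoters of *Dusp1* and *Dusp6* are shown because these phosphatases, although both well above background, differed in their change. Whether the promoter letters have a part in these changes was not tested. Capitals mark the cyclic AMP response element, or CRE, TGACGTCA, the letters that CREB proteins bind, and its core TGACG on either strand. The *Dusp1* promoter is chr17:26508473-26508722 on the minus strand and the *Dusp6* promoter is chr10:99262981-99263230 on the plus strand, each printed 5′ to 3′ along its gene.
Dusp1: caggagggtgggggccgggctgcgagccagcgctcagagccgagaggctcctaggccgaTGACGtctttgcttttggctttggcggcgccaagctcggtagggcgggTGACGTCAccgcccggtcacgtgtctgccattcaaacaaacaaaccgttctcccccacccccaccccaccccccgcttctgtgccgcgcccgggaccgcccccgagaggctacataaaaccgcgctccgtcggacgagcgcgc
Dusp6: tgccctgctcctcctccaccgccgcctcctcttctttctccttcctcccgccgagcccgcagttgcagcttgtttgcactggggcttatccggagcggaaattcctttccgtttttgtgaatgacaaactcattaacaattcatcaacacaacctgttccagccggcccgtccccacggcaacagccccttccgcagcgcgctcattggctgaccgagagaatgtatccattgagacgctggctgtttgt

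The *Dusp1* window held the full CRE, starting 143 bases before the gene, and a further core 191 bases before it. The full element occurred in 1.55% of 32851 mouse promoter windows of this length and the core, which the full element contains on both strands, in 17.8%. Of the other 7 promoters, those of *Dusp5* and *Spred2* held the core, 55 and 51 bases before the gene. Those of *Dusp6*, *Dusp10*, *Spry1*, *Spry2* and *Spred1* held neither. Neither the AP-1 letters TGACTCA, present in 4.46% of all windows, nor the ETS letters CCGGAA, present in 12%, were found in any of the 8, with both strands searched. Of 150 tested genes with the full CRE in a promoter, 2 passed the adjusted threshold (1.33%, against 1.73% of all genes tested). Their median change was 0.02 against 0.006 for all 5211 tested genes with a promoter entry. A match is a description of letters and not of a bound site.

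*Spry4* was the only Sprouty gene that could be tested. Its normalized values were 5.62, 5.83 and 5.38 in controls and 4.75, 5.30 and 4.62 with PTH. All 3 controls were above background, but of the PTH arrays only array 2 was, so *Spry4* met the filter through its controls, the group where it was higher. The deposited signals were 138, 162 and 131 in controls and 113, 130 and 120 with PTH, so the highest PTH signal almost reached the lowest control. The change was -0.72 (SE 0.21), with a 95% confidence interval of -1.20 to -0.24 (limma adjusted p = 0.163). Without background correction the change was -0.24, and leaving out single arrays gave -0.93 to -0.54.

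The other Sprouty genes gave no measured level. Both probes of *Spry1* stayed at background on all arrays, with signals of 92 to 115. *Spry2* had signals of 98 to 108 on 5 arrays, and only PTH array 3, which had the brightest upper range, was above background, at 144. No change can be given for either gene.

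*Spred1*, which restrains RAS together with neurofibromin, was well above background on every array. Its values were 8.76, 8.55 and 8.69 in controls and 8.52, 8.34 and 8.30 with PTH. The PTH arrays were lower without overlap, but PTH array 1 and control array 2 were almost level. The deposited signals, 439, 471 and 503 in controls and 387, 421 and 543 with PTH, overlapped. The change was -0.28 (SE 0.13), with a 95% confidence interval of -0.58 to 0.02 (limma adjusted p = 0.378). *Spred2* had 3 probes, and control array 2, with a signal of 142 for the brightest probe, was the only measurement above background.

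**Figure D3:**
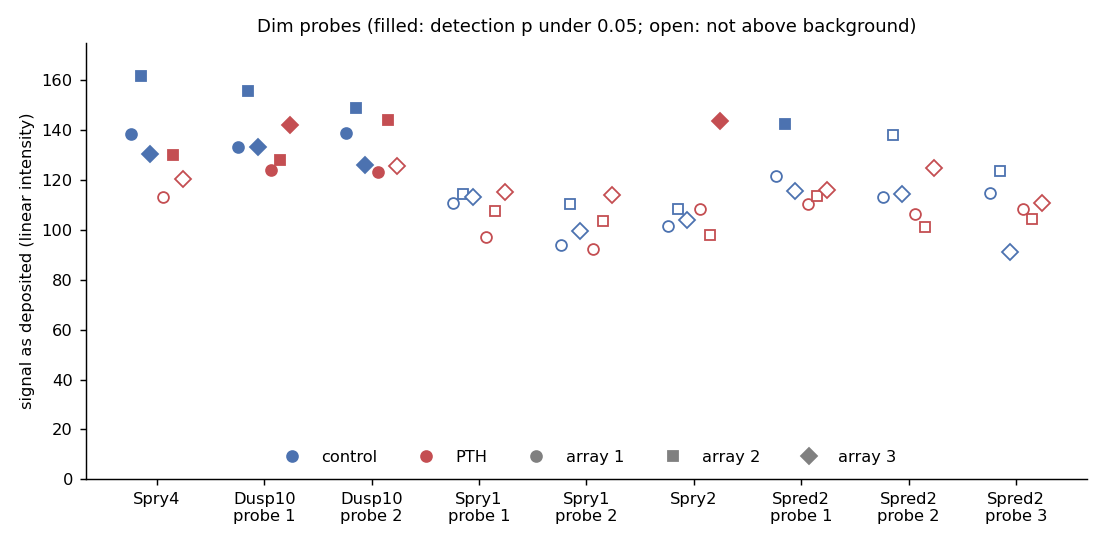
Deposited signal (linear intensity) of the probes of *Spry4*, *Dusp10*, *Spry1*, *Spry2* and *Spred2* on each control (blue) and PTH (red) array, filled where the detection p was below 0.05. *Spry4* was above background on 3 control arrays and 1 PTH array, and *Spry1* on 0 arrays.

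The pattern over the 6 arrays was compared by the root mean square difference of log2 values, each gene centred on its own mean. Among the 5 genes closest to *Dusp1* were *Gp38* (0.0484), *Dhrs6* (0.054), *Mxi1* (0.069) and *Inhba* (0.0692). Of these *Dhrs6* (change 0.70, limma adjusted p = 0.0328) and *Inhba*, a subunit of activin (change 0.61, limma adjusted p = 0.0468), rose. All were picked for likeness to *Dusp1* on these same arrays, so changes near its own follow from the choice. *Gp38*, which encodes the osteocyte dendrite protein podoplanin, differed by 0.70 (limma adjusted p = 0.056). The 5 closest to *Spry4* were *Pcdh20* (0.0673), *AI132321* (0.0838), *AJ430384* (0.0939), *Pparg* (0.0953) and *2310039E09Rik* (0.119). Their changes ran from -0.87 to -0.67, which likewise follows from the choice, and 0 of the 5 passed the adjusted threshold.

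Of related inhibitors outside the 10 genes, 0 of 8 tested passed, while 2 had an unadjusted p below 0.05 and the median change was 0.17. Over all genes tested the shares were 1.73% and 14.9%. *Dusp2*, a nuclear ERK phosphatase of immune cells, was 6.55 ± 0.29 in controls and 7.11 ± 0.03 with PTH (change 0.57, limma adjusted p = 0.164). *Dusp22*, an atypical phosphatase, was above background on 0 control arrays and 3 PTH arrays. It met the filter only through the PTH arrays, so its means of 4.84 in controls and 5.33 with PTH are a description (limma adjusted p = 0.116), and it is 1 of the 2 genes counted above.

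The pathways that these proteins restrain were described from lists of their own. For comparison, 1.73% of all genes tested passed the adjusted threshold and 14.9% had an unadjusted p below 0.05. In the ERK cascade, from RAS to the RSK kinases, 0 of 21 tested genes passed, 2 had an unadjusted p below 0.05 and the median change was -0.01. *Map2k1*, which encodes the ERK kinase MEK1, differed by 0.46 (limma adjusted p = 0.21) and *Frs2*, an adaptor of FGF receptors, by -0.30 (limma adjusted p = 0.279). In the p38 and JNK cascade 0 of 15 passed and 3 had an unadjusted p below 0.05, with a median of -0.04. *Mapk8*, which encodes JNK1, differed by 0.60 (limma adjusted p = 0.116) and *Mapkapk3*, a kinase downstream of p38, by 0.41 (limma adjusted p = 0.286).

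Genes commonly induced by ERK, such as immediate early transcription factors, held the only calls among these lists. Of 18 tested, 2 fell and 0 rose by the adjusted threshold, which 1.73% of all genes tested passed. An unadjusted p below 0.05 was reached by 8, where 14.9% of all genes reached it, and the median change was 0.13. *Phlda1* went from 9.67 ± 0.10 to 8.59 ± 0.17, a change of -1.08 (limma adjusted p = 0.0123). *Egr3*, a zinc finger transcription factor, went from 9.56 ± 0.04 to 8.90 ± 0.08, a change of -0.65 (limma adjusted p = 0.0405). *Fos*, a subunit of AP-1, was 0.52 higher (limma adjusted p = 0.0788) and *Ier3*, an early response gene, 0.41 higher (limma adjusted p = 0.159). The count of 2 became 1 without control array 2 or without PTH array 1, and 0 without any of the other 4 arrays. It was also 0 with median scaling and with the replicate number as a block.

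Among growth factor receptors, the inputs that Sprouty and Spred proteins dampen, 0 of 11 tested genes passed and 5 had an unadjusted p below 0.05, with a median of -0.05. The shares over all genes tested were 1.73% and 14.9%. *Igf1r*, the IGF-1 receptor, differed by -0.56 (limma adjusted p = 0.134) and *Egfr*, the EGF receptor, by 0.44 (limma adjusted p = 0.169).

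**Figure D4:**
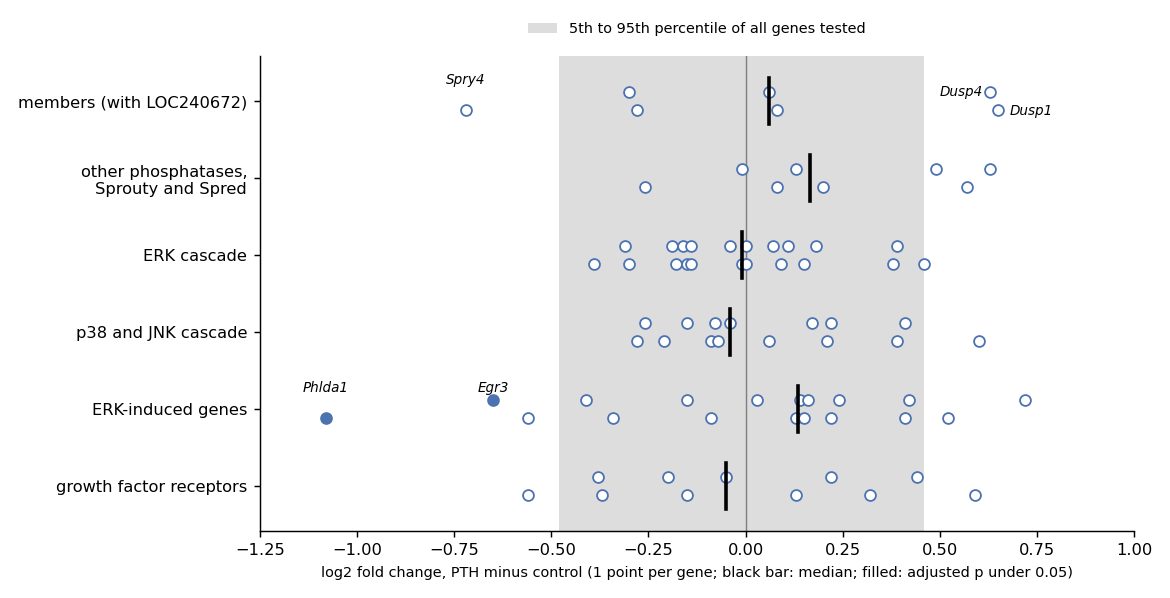
Change (PTH minus control, log2) of each tested gene in the family (with LOC240672) and in 5 related lists, with the median of each list as a black bar and the 5th to 95th percentile of all genes, -0.48 to 0.46, in grey. *Dusp1*, *Dusp4* and *Spry4* lie outside the grey band, and the genes that passed the adjusted threshold, *Phlda1* and *Egr3*, are filled.

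Osteocyte markers were present in the tubes, with 5 of 6 tested and *Fgf23* above background on 0 arrays. Of these 1 fell, *Mepe*, a matrix protein of osteocytes, by 1.02 (limma adjusted p = 0.0128). By sign, 4 of the 5 were lower and 1, *Gp38*, was higher, with a change of 0.70 (limma adjusted p = 0.056). The median change of the 5 was -1.02. For each list, a summed signal adds the normalized values of its genes on the linear scale, genes at background included, and not the deposited signals. For the osteocyte list it was 7427 to 8781 in controls and 5999 to 7181 with PTH. Markers of other cell types were present too, and some of them moved with the treatment. All 4 cartilage markers were tested and 1 fell, *Acan*, with a change of -1.06 (limma adjusted p = 0.0114). It was above background on 3 control arrays and 0 PTH arrays. By sign 3 of the 4 were lower and 1, *Sox9*, was higher, with means of 9.23 in controls and 9.55 with PTH (limma adjusted p = 0.233). The summed signal, to which *Sox9* as the brightest of the 4 gave the most, was 910 to 935 in controls and 956 to 968 with PTH. Of the endothelial and macrophage markers 0 of 6 and 0 of 5 passed the adjusted threshold, with 1 and 2 at an unadjusted p below 0.05 by limma. Of all genes tested 1.73% passed that threshold and 14.9% had such an unadjusted p. The summed signal of neutrophil markers was 50628 to 51464 in controls and 32934 to 37416 with PTH. All 6 tested were lower by sign and 3 of them passed the adjusted threshold (*Elane* was above background on 0 arrays). The haemoglobin genes tested, 2 of the 5 red cell markers, both fell, and the summed signal of that list was 8614 to 10056 in controls and 2404 to 2676 with PTH. The 4 tested osteoclast markers were all higher by sign and 3 of them passed the adjusted threshold. The sums of this list were 11801 to 13309 in controls and 15880 to 20487 with PTH, and *Calcr* was above background on 0 arrays. All 6 osteoblast markers were tested and all 6 were lower by sign, of which 2 passed the adjusted threshold. Their sums were 27009 to 27619 in controls and 15457 to 16377 with PTH. The part of these cell types in the values of *Dusp1*, *Dusp4*, *Spry4* and the other genes was not tested. In RNA of whole tubes, fewer cells of a type and less RNA per cell cannot be told apart.

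**Figure D5:**
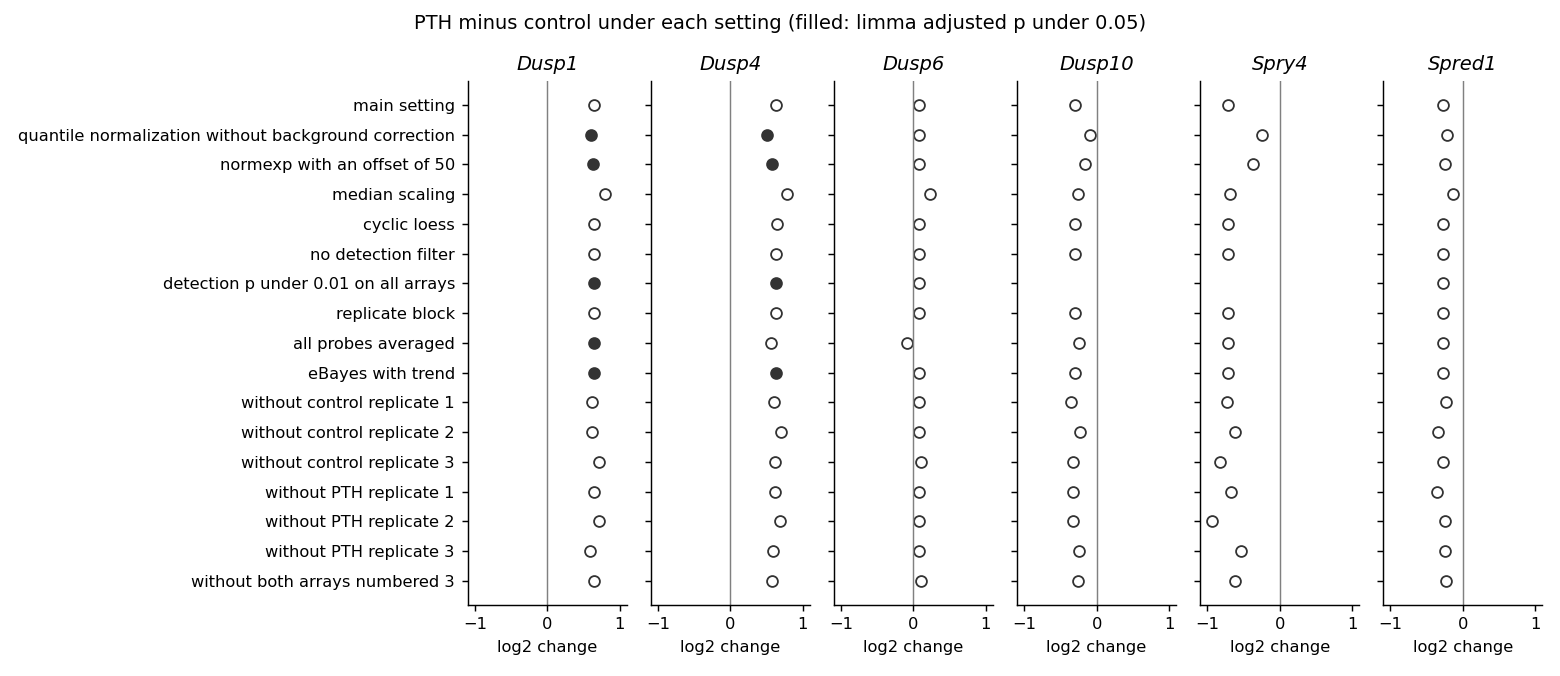
Change (PTH minus control, log2) of the 6 tested genes under the main setting, 9 alternatives, each array left out in turn, and both arrays numbered 3 left out, filled where the limma adjusted p was below 0.05. *Dusp1* was filled in 5 alternatives and *Dusp4* in 4, and *Dusp6* changed sign with all probes averaged; *Dusp10* and *Spry4* had no value under the strictest detection filter.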

How the data were processed

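Total RNA of 3 control and 3 PTH samples was hybridized to Illumina mouse bead arrays. The authors deposited a linear intensity for each probe, not normalized, with a detection p-value; the submitters' processing notes name GenomeStudio, and background subtraction is not given in the sources used here. Groups were taken from the sample titles. Because separate cultures are not stated for each array, p-values measure the spread between these arrays only, and their number limits the precision.

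Intensities were processed with limma 3.58.1 in R 4.3.3: normexp background correction from the detection p-values (neqc, offset 16), quantile normalization and log2. Of 45281 probes, 16214 with detection p below 0.05 on at least 3 arrays were tested (lmFit, eBayes) and p-values adjusted over all of these by the Benjamini-Hochberg method. Scripts were tested on simulated data. Members and lists were chosen with earlier results of these data known. All members are named. In each other list the genes named are those that passed, plus the 2 with the smallest adjusted p. The 5 genes most like the member with the smallest p in each direction are also named, except 1 that is not reported here. Replicate numbers were not used to pair arrays.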

Additional observations from a re-analysis of the deposited data

How the results depend on the processing

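Changes of the 6 tested genes were recomputed under 94 combinations of gene and alternative. Of these 84 kept their sign and their side of the threshold, 9 came to pass it and 1 reversed, *Dusp6* at -0.09 with all probes averaged. The count of genes of the family passing was 0 in the main setting, 2 (*Dusp1* and *Dusp4*) with quantile normalization without background correction, normexp with an offset of 50, detection p below 0.01 on all arrays (4 genes tested) or eBayes with trend, and 1 (*Dusp1*) with all probes averaged. In those settings *Dusp1* was 0.60, 0.63, 0.65, 0.65 and 0.65, and *Dusp4*, in the first 4, was 0.51, 0.58, 0.63 and 0.63. Over all genes, 588, 401, 340, 589 and 270 passed there, against 207 in the main setting. The cause was not tested. The count was 0 in every fit that left out 1 array, and in the fit without both arrays numbered 3, which was chosen after seeing the data. LOC240672 ranged from -0.03 to 0.18 when single arrays were left out, and was -0.07 without both arrays numbered 3.

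ERK-induced genes passing numbered 2, against 4 without background correction, 4 with trend, 0 with median scaling, 0 with the replicate block and 0 to 1 with single arrays left out. Growth factor receptors passing numbered 0, against 2 without background correction and 2 with trend. Median scaling moved the median of all genes to 0.12, where 103 passed, 62 of them higher (207 and 82 in the main setting); relative to that shift *Dusp1* was 0.69, *Dusp4* 0.67, *Dusp6* 0.11, *Dusp10* -0.37, *Spry4* -0.80 and *Spred1* -0.25. No filter left 158 genes passing and cyclic loess 232.

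Deviations of same-numbered arrays correlated at 0.07, 0.06 and 0.27. Arrays 1 and 2 of opposite groups correlated at 0.07, and array 3 with arrays 1 and 2 of the other group at -0.14 to -0.13. Arrays 1 to 3 had 34.8%, 36.3% and 38.4% of probes above background in controls and 34.2%, 36.1% and 38.4% with PTH. Whether same-numbered arrays shared a preparation was not tested, and the main fit did not pair them. With the replicate number as a block 44 genes passed overall and 0 of the family. Leaving out single arrays left 48 to 78 genes passing, and leaving out both arrays numbered 3 left 9. Signal over background limits *Spry1*, *Spry2*, *Spred2*, *Spry4* and *Dusp10* most, and the first 3 of these have no measured change.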
